A study of Mus musculus with 3 samples.

Results

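The S100 calcium-binding proteins measured here were the products of 8 mouse genes, S100a1, S100a4, S100a6, S100a8, S100a9, S100a10, S100a11 and S100a13. They were matched by symbol to the gene tables, each symbol to 1 identifier, and are 8 of the 55536 annotated genes and 8 of 22015 nuclear protein-coding genes. The RNA came from macrophages grown in culture from the bone marrow of C57BL/6J mice, which are primary cells and not a line. The cells were first given Lipid A (100 ng/ml, 12 h), then left 12 h after it was washed out, and were given the same dose again 25 min before harvest. Lipid A is the moiety of bacterial endotoxin that engages Toll-like receptor 4 (TLR4). The cytosolic fraction was taken, ribosomal RNA was depleted from 1 µg of total RNA, and 3 libraries were sequenced, biological replicates 1 to 3 of a single group. All 3 carry one donor entry, neither sex nor age of the animals is given, and no unstimulated cells and no nuclear fraction were analysed here. Levels of the members in this state could therefore be measured, ordered and compared between libraries, but no response to Lipid A could be computed. Because nothing says that the libraries came from different animals, SDs and p-values describe no more than how these samples differ from each other, which may be technical.

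S100 proteins are small proteins with a pair of EF-hand calcium-binding loops, and most act as dimers. Calcium opens a hydrophobic face that docks onto target proteins, so an S100 dimer works as a calcium-dependent adaptor rather than as an enzyme. S100A10 is the exception, since its loops no longer bind calcium and it is held permanently in the open shape. In myeloid cells the family is best known for calprotectin, the S100A8 and S100A9 heterodimer that neutrophils and monocytes store in their cytosol and release as an alarm signal recognised by TLR4 and by the receptor for advanced glycation end products (RAGE, gene Ager). S100A4 binds non-muscle myosin, S100A6 binds the ubiquitin adaptor encoded by Cacybp, S100A10 and S100A11 bind annexins, and S100A13 takes part in the export of proteins that lack a signal peptide.

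Total expected counts were 55517261, 21311556 and 45635014 in replicates 1, 2 and 3, so replicate 2 is the shallowest. Of all transcripts per 1000000 (TPM), those of nuclear protein-coding genes made up 29.6%, 40.4% and 34.8%. For this reason the members are also given as rescaled TPM, in which these genes sum to 1000000 in each library, and as protein-coding CPM, which are counts per 1000000 counts of these genes and are not divided by length. The macrophage label was checked against its markers, all 12 of which reached 1 TPM in each of the libraries; their median level was 274 ± 73.2 TPM (SD, n = 3). Markers of dendritic cells (0 of 6), of T, B and NK cells (0 of 7), of stromal cells (0 of 7), of mast cells and basophils (0 of 3), of erythroid cells (0 of 3), of neural and glial cells (0 of 3) and of epithelial cells (0 of 4) did not reach that level in every library.

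All 8 members lie on chromosome 3 (mm10, GENCODE M21) in separate stretches. S100a1, S100a13, S100a4, S100a6, S100a8 and S100a9 sit within 184688 bases (90511034 to 90695721) among 12 protein-coding S100 genes. S100a11 (93520488 to 93526287) and S100a10 (93555080 to 93564643), both on the plus strand, lie 2824766 bases further on, with 60 protein-coding genes in between. The main transcript of each member has 3 exons of which 2 are coding, except that of S100a13, which has 4 and 3. The encoded proteins run from 89 codons (S100a6 and S100a8) to 113 codons (S100a9), and the S100a13 model has 160.

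S100a1 (minus strand, 90511034 to 90514392) and S100a13 (plus strand, 90514435 to 90524581) are transcribed away from each other and are separated by only 42 bases, chr3:90514393-90514434. Of 4481 pairs of neighbouring protein-coding genes arranged head to head without overlap, 94 (2.10%) have a gap as short or shorter. The median gap is 22923 bases. Pairs whose gene models overlap were left out of these values. The gap is that of the GENCODE models; RefSeq starts S100a1 inside the GENCODE gene, at 90514330. It is shown because both genes are annotated to start beside it, written on the plus strand from the S100a1 side to the S100a13 side (GRCm38.p6, from RefSeq), with none of the motifs searched.
S100a1 to S100a13 gap: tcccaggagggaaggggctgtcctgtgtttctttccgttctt
From either side of it, S100a1 was measured at 48.5 ± 5.71 TPM and S100a13 at 14.6 ± 1.80 TPM (SD, n = 3).

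The sequences just upstream of the annotated starts of 5 further members are shown because their levels or their spread carry the results that follow. They are written in the direction of transcription, come from RefSeq on GRCm38.p6, and run to the base before the GENCODE start or, for S100a4, before the RefSeq start, which lies just upstream of it. S100a4 (chr3:90603670-90603769, plus strand) and S100a6 (chr3:90612782-90612881, plus strand) are the members that varied most, S100a8 (chr3:90668878-90668977, plus strand) and S100a9 (chr3:90695722-90695967, minus strand) encode calprotectin, and S100a11 (chr3:93520350-93520487, plus strand) had the highest mean. Capitals mark matches to a TATA box (TATAAA), a C/EBP motif (TTGCNNAA), an AP-1 motif (TGANTCA) and a GC box (GGGCGG), each searched on both strands.
S100a4: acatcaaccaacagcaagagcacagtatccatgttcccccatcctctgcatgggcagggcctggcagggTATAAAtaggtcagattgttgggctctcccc
S100a6: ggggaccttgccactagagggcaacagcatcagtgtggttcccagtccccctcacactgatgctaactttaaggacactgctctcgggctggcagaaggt
S100a8: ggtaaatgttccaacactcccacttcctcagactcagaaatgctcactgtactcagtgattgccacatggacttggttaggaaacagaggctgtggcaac
S100a9: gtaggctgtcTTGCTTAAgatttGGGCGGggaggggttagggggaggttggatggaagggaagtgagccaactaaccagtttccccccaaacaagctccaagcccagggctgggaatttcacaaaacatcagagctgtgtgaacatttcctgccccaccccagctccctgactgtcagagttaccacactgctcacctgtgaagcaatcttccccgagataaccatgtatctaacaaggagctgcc
S100a11: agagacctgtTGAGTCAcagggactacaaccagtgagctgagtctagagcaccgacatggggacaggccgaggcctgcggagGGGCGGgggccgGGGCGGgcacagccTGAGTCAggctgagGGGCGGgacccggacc
The S100a4 sequence holds a TATA box 31 to 26 bases before the RefSeq start. The S100a9 sequence holds a C/EBP match at 236 to 229 and a GC box at 223 to 218, while the S100a11 sequence holds AP-1 matches at 128 to 122 and at 30 to 24 and 3 GC boxes, and none of these matches overlap. For S100a8, RefSeq places the start inside the first GENCODE exon, so its TATA box, 30 bases before the RefSeq start, is not in the stretch shown. Over the 250 bases before the RefSeq start, 7 members had a sequence to search, and the C/EBP motif occurred in 1 of them against 9.56% of 32851 promoters, the AP-1 motif in 1 against 6.75%, the TATA box in 2 against 12.4% and the GC box in 2 against 32.7%. The NF-κB consensus (7.25% of promoters) and the interferon-stimulated response element core (2.98%) matched 0 of the 7. A match describes letters only, and no binding was measured.

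**Figure D1:**
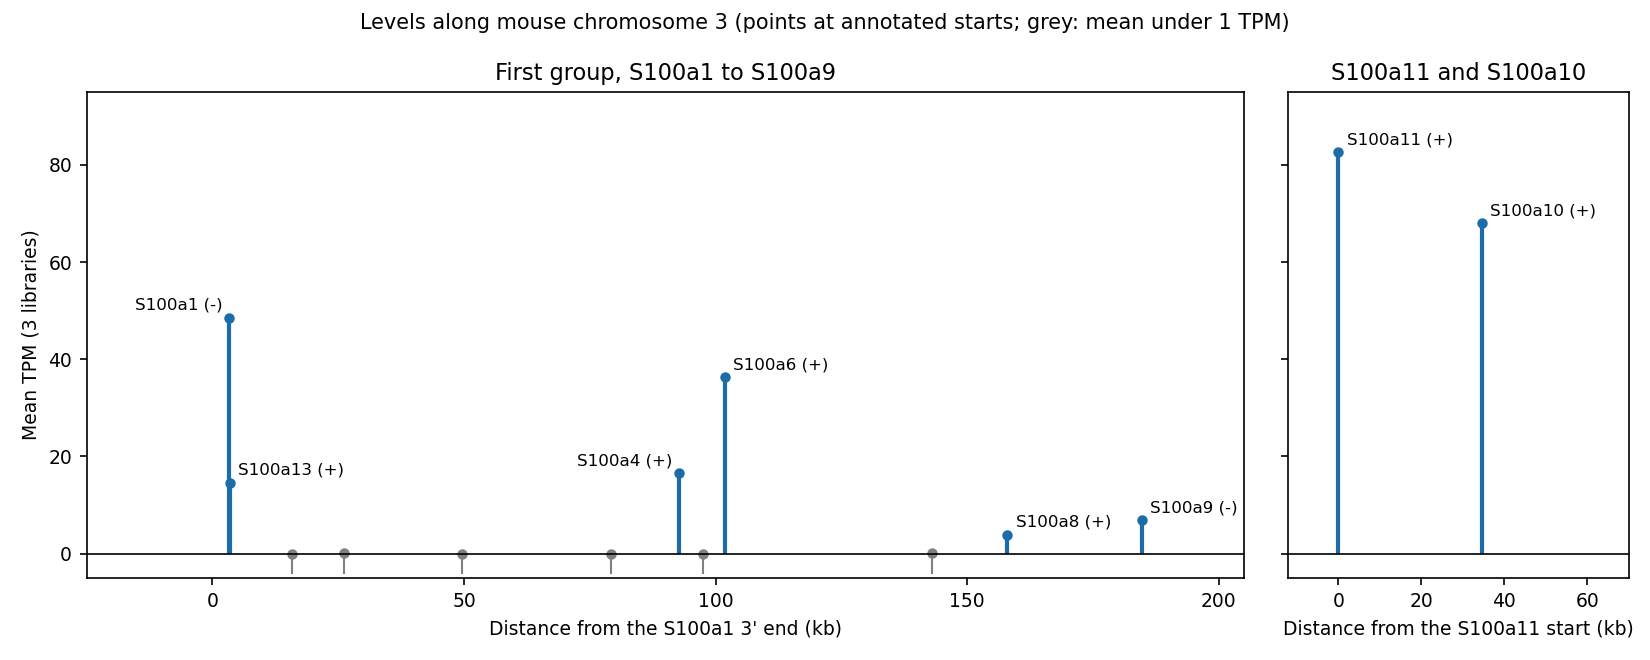
Mean TPM over the 3 libraries (vertical axis) of the S100 genes along mouse chromosome 3, at each gene's annotated start (horizontal axis, distance in kb); grey points with ticks are S100 genes with a mean under 1 TPM. S100a1 and S100a13 start next to each other and stand at 48.5 and 14.6 TPM, and the 2 most abundant members, S100a11 and S100a10, form the separate group on the right.

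All 8 members reached 1 TPM in every library, against 9275 of 22015 nuclear protein-coding genes (42.1%); since the members were listed with results of these data known, this describes them and tests nothing. The remaining 9 protein-coding S100 genes were at or near 0. S100a2, S100a3, S100a5, S100a14 and S100z had 0 counts in each library of the gene tables, and S100a16, S100a7a, S100b and S100g had at most 4 counts in any library. The upper limit behind a count of 0, taken as 3 counts, corresponds to 0.0626, 0.153 and 0.0740 protein-coding CPM in replicates 1 to 3, for counting error alone. Together the 8 members summed to 272, 275 and 285 TPM, and to 0.0917%, 0.0680% and 0.0819% of all nuclear protein-coding TPM. S100a11 and S100a10 made up 29.8% ± 4.66 and 24.6% ± 1.98 of the members' sum.

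S100a11, whose protein is a partner of annexin A1, was measured at 66.3, 88.8 and 92.6 TPM in replicates 1, 2 and 3 (82.6 ± 14.3, SD, n = 3), on 1733, 664 and 1862 expected counts. It ranked 655th by mean TPM among the 9604 nuclear protein-coding genes whose mean was 1 TPM or more (here called expressed). S100a10, the light chain that binds annexin A2 at the membrane, stood at 71.1, 69.2 and 63.6 TPM (68.0 ± 3.90) and ranked 820th. The median over the expressed genes was 8.33, 10.9 and 8.75 TPM, and both members lay far above it in every library. S100a11 was above S100a10 in replicates 2 and 3 and below it in replicate 1, and their difference of 0.26 ± 0.33 on the log2(TPM + 1) scale was smaller than its spread (exact sign-flip permutation test, two-sided, p = 0.5, adjusted over 7 pairs p = 0.583). Without division by length the order turned, at -0.40.

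S100a1, best known as a calcium-handling protein of heart and skeletal muscle, was measured at 43.8, 54.8 and 46.8 TPM (48.5 ± 5.71, rank 1149). In rescaled TPM it stood at 148, 136 and 134, the narrowest relative spread of the members on that scale, with a highest-to-lowest ratio of 1.10. S100a10 exceeded S100a1 in 3 of 3 libraries by 0.48 ± 0.18 on the log2(TPM + 1) scale (exact p = 0.25, adjusted p = 0.35). With 3 libraries this test cannot give a p below 0.25, so no difference between members could pass a threshold of 0.05.

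S100a6, the calcyclin gene, was measured at 41.4, 22.5 and 44.9 TPM (36.3 ± 12.0, rank 1539), on 1282, 191 and 1096 counts. S100a4, which encodes the myosin-binding protein also called metastasin, was measured at 27.7, 9.54 and 12.2 TPM (16.5 ± 9.80, rank 3236), on 692, 68 and 235 counts. S100a13 stood at 12.6, 15.2 and 16.0 TPM (14.6 ± 1.80, rank 3546). S100a6 was low in replicate 2 only, whereas S100a4 was high in replicate 1 and lower in both others. S100a1 exceeded S100a6 in 3 of 3 libraries, but by 0.46 ± 0.68 on the log2(TPM + 1) scale, less than its spread, because the difference was 1.25 in replicate 2 and 0.08 and 0.06 in replicates 1 and 3. S100a6 exceeded S100a4 by 1.17 ± 0.62 in 3 of 3 libraries. S100a4 and S100a13 could not be ordered: their difference was 0.03 ± 0.92 (exact p = 1), positive in 1 of 3 libraries, and -0.49 without replicate 1.

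The calprotectin genes had the lowest means of the members, although in replicate 2 S100a4, at 9.54 TPM, lay below S100a9. S100a9 was measured at 5.04, 10.3 and 5.14 TPM (6.82 ± 2.99, rank 5745), on 133, 77 and 104 counts with exact Poisson 95% intervals of 111 to 158, 60.8 to 96.2 and 85.0 to 126. S100a8 was measured at 3.89, 4.36 and 3.41 TPM (3.89 ± 0.475, rank 7310), on 93, 30 and 63 counts with intervals of 75.1 to 114, 20.2 to 42.8 and 48.4 to 80.6. Both lay below the median of the expressed protein-coding genes in each library, S100a9 coming closest in replicate 2 (10.3 against 10.9 TPM). S100a9 exceeded S100a8 in 3 of 3 libraries, by 0.30, 1.07 and 0.48 on the log2(TPM + 1) scale (mean 0.62 ± 0.40, exact sign-flip permutation p = 0.25, adjusted p = 0.35). S100a13 exceeded S100a9 by 1.05 ± 0.48 in 3 of 3 libraries. Intervals here cover counting error only.

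Calprotectin is abundant in neutrophils and in inflammatory monocytes, so markers of both are given beside these levels. Of 13 neutrophil markers, 1 reached 1 TPM in every library, the collagenase gene Mmp8 at 2.89 ± 0.693 TPM, while Ly6g and Retnlg had 0 counts in all 3 libraries. The neutrophil list summed to 4.36, 8.55 and 3.25 TPM in replicates 1, 2 and 3, and the 6 monocyte markers, of which 4 reached 1 TPM in every library, summed to 25.5, 55.9 and 42.5 TPM. Protein-coding genes as a whole held more of the TPM in replicate 2. In rescaled TPM, which removes that difference, the neutrophil list summed to 14.7, 21.1 and 9.35, the monocyte list to 85.9, 138 and 122 and the macrophage list to 22298, 25034 and 23666, beside 17.0, 25.4 and 14.8 for S100a9. All 4 were highest in replicate 2, where the granule gene Ngp was measured at 3.50 TPM against 0.67 and 0.57. The part of such cells in the S100a9 level was not tested. In bulk RNA of this kind, fewer cells of a type and less RNA per cell cannot be told apart.

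**Figure D2:**
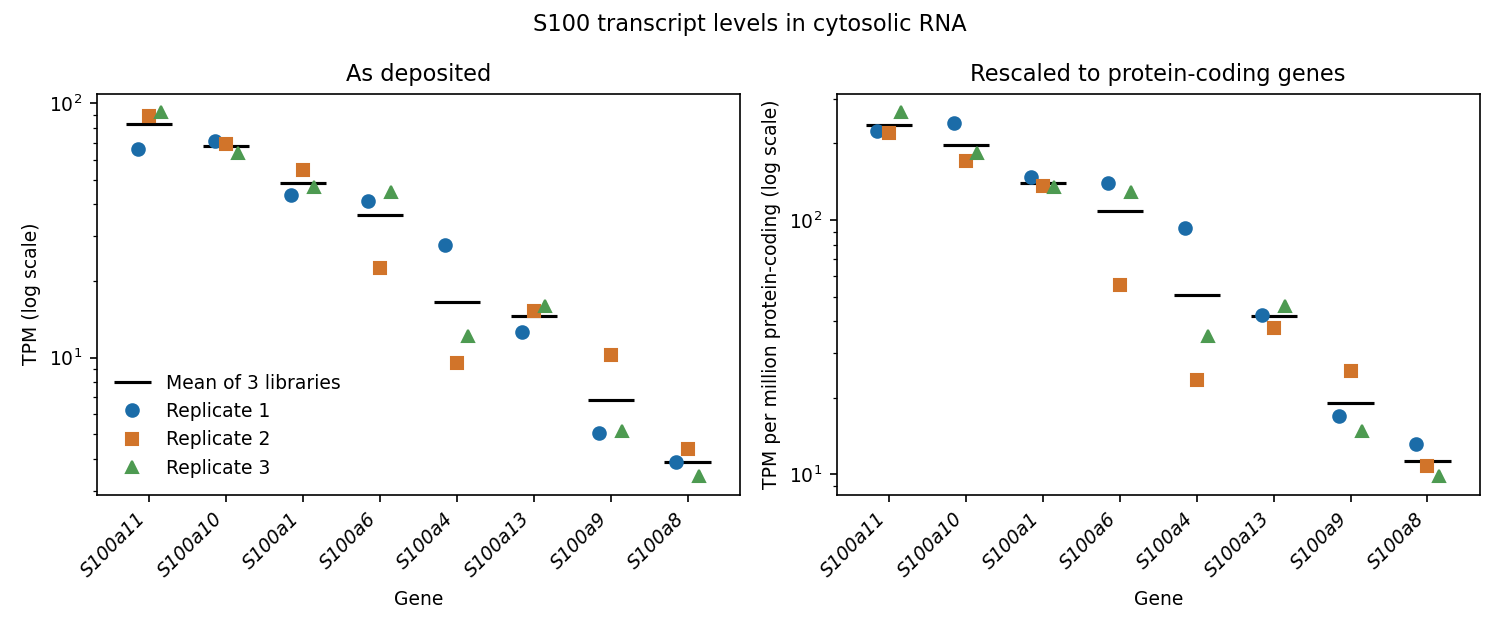
Level of each S100 gene in each library (points) and the mean of 3 libraries (bars), as deposited TPM on the left and rescaled to nuclear protein-coding genes on the right, both on log axes. S100a11 and S100a10 have the highest means and S100a8 and S100a9 the lowest; in rescaled TPM the points of S100a4 and S100a6 spread most, with replicate 2 at the bottom, while in deposited TPM S100a9 spans about as much as S100a6, with replicate 2 at the top.

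Between libraries, S100a4 and S100a6 stood apart from the other members. In protein-coding CPM, S100a4 was 14.4, 3.47 and 5.79, a ratio of 4.16 between highest and lowest, and S100a6 was 26.7, 9.76 and 27.0, a ratio of 2.77. Against the mean of the other libraries, with 0.1 added, the log2 ratio of replicate 2 was -1.52 for S100a4 and -1.45 for S100a6. Among the 9604 expressed protein-coding genes, 0.364% and 0.427% had a lower ratio in that library. S100a4 was also the extreme in replicate 1, at 1.62, above 99.8% of these genes. The low values of replicate 2 kept their sign for both genes under TMM-normalized CPM, rescaled TPM and read-based counts. A single library against the others has no replicate, so these ratios carry no test.

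Of the 8 members, 7 had their lowest protein-coding CPM in replicate 2, against 34.9% of the expressed protein-coding genes. S100a9 was the exception, highest there at 3.93 against 2.77 and 2.56. For the others the drop was small: the log2 ratio of replicate 2 ran from -0.38 (S100a10) to -0.14 (S100a1) without S100a4 and S100a6. The median over the members was 0.22, -0.29 and -0.04 in replicates 1, 2 and 3, beside 0.09, -0.02 and -0.09 over the expressed protein-coding genes. The count of members lowest in replicate 2 depends on the scale. In rescaled TPM, S100a1 (136 against 134) and S100a8 (10.8 against 9.81) were higher in replicate 2 than in replicate 3. With read-based counts the replicate 2 ratio of S100a8 was 0.32. Of 72 library ratios of the members under the 3 other scales, 67 kept their sign.

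S100 transcripts are short, and short transcripts as a class were also lower in replicate 2. Over 181 expressed protein-coding genes under 600 bases, a limit chosen after the values were seen, the median log2 ratio was 0.13, -0.44 and 0.22 in replicates 1, 2 and 3. Over 86 ribosomal protein genes it was 0.22, -0.52 and 0.19. Within the 181 short genes, 3.31% lay below S100a4 in replicate 2 and 4.97% below S100a6. With a limit of 750 bases (390 genes), the medians were 0.12, -0.32 and 0.16 in replicates 1, 2 and 3. Within those genes, 2.31% lay below S100a4 in replicate 2 and 3.08% below S100a6. S100a8, S100a9 and S100a11, whose main transcripts of 486, 512 and 511 bases are about as short as those of S100a4 (498) and S100a6 (464), had replicate 2 ratios of -0.18, 0.54 and -0.27. The part of transcript length in the S100a4 and S100a6 values was not tested.

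**Figure D3:**
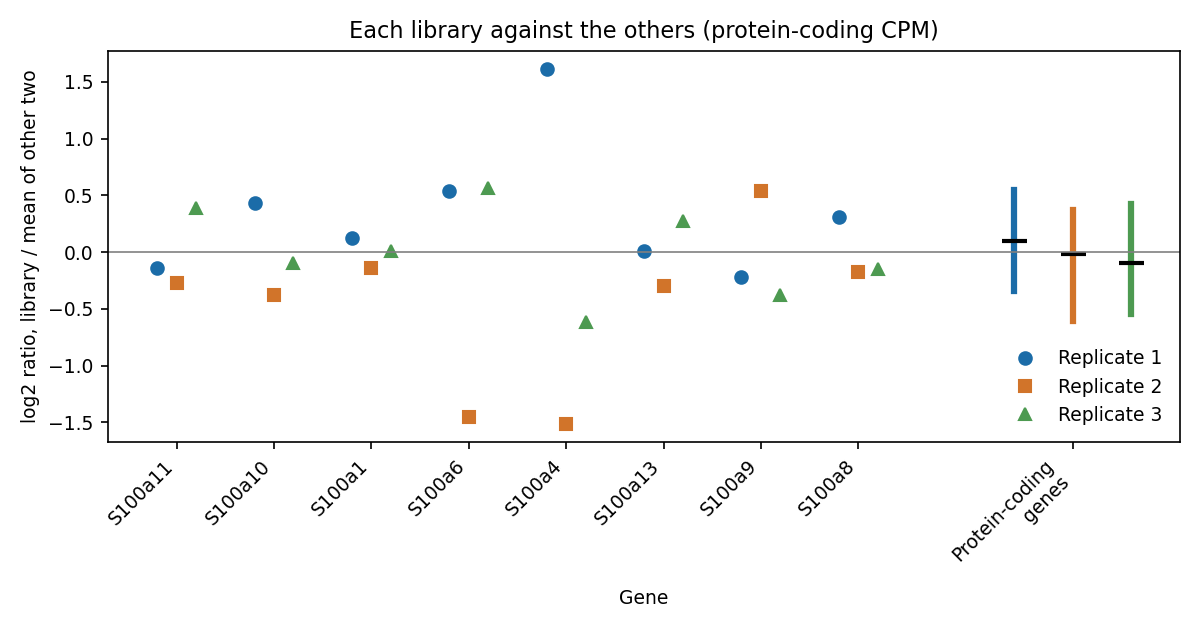
Protein-coding CPM of a library over the mean of the remaining ones, as a log2 ratio (vertical axis), for each S100 gene; at the right, vertical lines span the 5th to 95th percentiles of the expressed protein-coding genes and black bars mark their medians. S100a4 and S100a6 in replicate 2 lie at -1.52 and -1.45, below the 5th percentile of -0.60, and S100a9 alone is above 0 in that library.

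The variation between libraries beyond counting noise, the biological coefficient of variation (BCV) estimated gene by gene with edgeR, was highest for the same genes. It was 0.651 for S100a4 and 0.522 for S100a6, above 98.9% and 97.7% of the 11149 protein-coding genes fitted, whose median was 0.114. S100a9 (0.200), S100a11 (0.195), S100a10 (0.151) and S100a13 (0.147) lay above that median, and S100a1 at 0.0398 lay below it, above 16.9% of the genes. Among protein-coding genes of like abundance (average log2 CPM within 0.5), S100a9 lay near the middle, above 51.8% of 753 genes. On the same comparison S100a13, S100a10 and S100a11 lay above 60.5%, 76.5% and 86.6%, S100a4 and S100a6 above 98.9% and 99.4%, and S100a1 above 18.2%. S100a8, on 30 to 93 counts, was at the lower end of the range the estimate can take, so no excess over counting noise was measurable for it at this depth. The S100a6 value rests on replicate 2, without which it was 0.0702, and the S100a4 value fell to 0.367 without replicate 1. The values of the 4 middle genes rest on single libraries: without replicate 2, S100a9 was at the lower end of the estimate (0.00988) and S100a10 at 0.0929, and without replicate 3, S100a11 was at that lower end and S100a13 at 0.0202. S100a1 was 0.0709 without replicate 1 and 0.0184 without replicate 2. No median over genes was computed for the fits that leave out a replicate, so these values have no place among the genes of their own fit. The package's default, which draws each gene towards the trend over all genes, gave 0.423 for S100a4, 0.326 for S100a6 and 0.132 for S100a1. It gave 0.338 for S100a8 and 0.335 for S100a9, so S100a6 stood above neither of them under that setting.

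The gene whose pattern over the 3 libraries was most like that of each member was found as the smallest root mean square difference of centred log2 rescaled TPM, over genes whose mean was 5 TPM or more. For S100a4 the nearest of 6639 genes was Paxbp1, at a distance of 0.202, and 0 genes lay within 0.1. For S100a6 it was the ribosomal protein gene Rps21 at 0.0306, with 11 genes within 0.1. For S100a1, whose pattern is nearly flat, 2052 genes were that close. The nearest genes of the remaining members were Hvcn1 for S100a1, Dnajc11 for S100a8, Ino80e for S100a9, Tkt for S100a10, Ppp2r5a for S100a11 and Cops4 for S100a13, at distances of 0.00196, 0.00580, 0.00305, 0.00377, 0.00963 and 0.000745. S100a11 and S100a13 were within 0.1 of each other, but of the 6639 genes compared 734 were that close to S100a11 and 946 to S100a13. With 3 libraries many genes match by shape alone, and no shared function is read from it.

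Most members were measured as 1 transcript. S100a11 and S100a13 have 1 annotated transcript each, S100a4-201 held 100% of the gene's TPM in each library, S100a10-201 held 99.9% ± 0.108 and S100a1-201 held 96.7% ± 2.03 (SD, n = 3). S100a6 was divided between transcripts with different first exons. S100a6-203, which starts at 90613305, held 62.0%, 68.4% and 56.7% of the gene's TPM (62.4% ± 5.87) and S100a6-201, which starts at 90612882, held 37.3% ± 5.60. By counts, which are not divided by length, the order turned, with 44.6% ± 5.32 for S100a6-203, because S100a6-201 is the longer (731 against 464 bases). In the read-based table, transcript S100a6-203 held 55.2% ± 5.85 of TPM, and in replicate 3 the order turned, at 48.6% against 50.9% for S100a6-201. The drop of S100a6 in replicate 2 was present in both transcripts, at 7.12 TPM against 15.5 and 19.2 for S100a6-201 and at 15.4 against 25.7 and 25.4 for S100a6-203.

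The calprotectin genes had minor transcripts whose presence varied between libraries. S100a9-201 held 76.0%, 100% and 83.7% of the gene's TPM in replicates 1, 2 and 3, and S100a9-202, a second coding transcript of almost the same length, held the rest. S100a8-201 held 100%, 78.9% and 100%, and in replicate 2 a retained-intron transcript took 21.1%, on 6.55 expected counts. The read-based table gave 17.3% for that transcript in the same library. At these counts the shares are imprecise, and reads of overlapping transcripts are divided by a model.

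**Figure D4:**
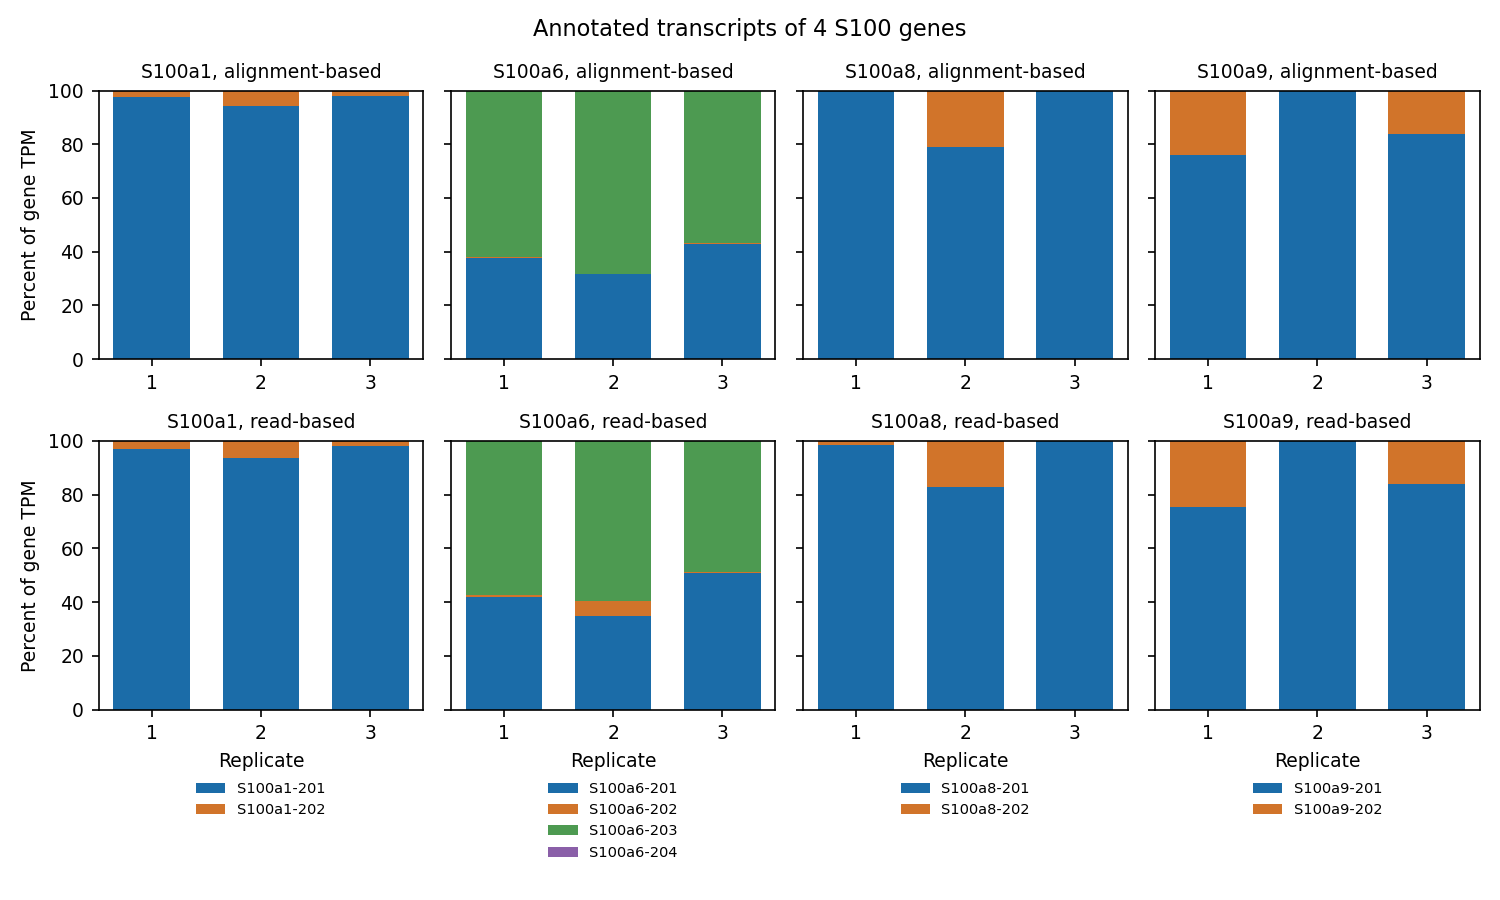
Percent of each gene's TPM (vertical axis) assigned to each annotated transcript in replicates 1 to 3 (horizontal axis), from the alignment-based tables (top) and the read-based tables (bottom), for S100a1, S100a6, S100a8 and S100a9. Both tables divide S100a6 between S100a6-201 and S100a6-203, give S100a9-202 a share in replicates 1 and 3 but not in 2, and show the retained intron of S100a8 mainly in replicate 2.

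The proteins that the members are known to bind were present to different degrees. The 6 annexin genes all reached 1 TPM in each of the libraries; their median was 83.2 ± 14.1 TPM, led by Anxa5 at 160 ± 31.0, Anxa2, the partner of S100a10, at 127 ± 28.3 and Anxa1, the partner of S100a11, at 90.0 ± 12.9 (SD, n = 3). In rescaled TPM, Anxa2 was measured at 359, 393 and 328 in replicates 1, 2 and 3 and S100a10 at 240, 171 and 183, so replicate 2 held the highest value of the one and the lowest of the other. Of 7 genes of the plasminogen system, which S100A10 binds at the cell surface, 3 reached 1 TPM in every library: the receptor gene Plgrkt at 28.0 ± 2.44 TPM, the urokinase gene Plau at 17.6 ± 6.18 and its receptor Plaur at 2.99 ± 0.636, while plasminogen itself (Plg) had 0 counts.

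Of 8 genes for receptors of S100 proteins and their co-receptors, 7 reached 1 TPM in every library. Cd14 stood at 92.2 ± 23.4 TPM, Bsg, a receptor for S100A9, at 83.8 ± 12.1, Cd36 at 45.1 ± 23.3, and Tlr4 at 29.6 ± 5.56. Ager, which encodes RAGE, was the gene below the limit, at 0.13, 0 and 0.03 TPM on 15, 0 and 2 counts. The 6 NADPH oxidase genes, to whose complex calprotectin delivers arachidonic acid, all reached 1 TPM, with Cyba at 596 ± 50.4 TPM, Rac2 at 289 ± 130 and Cybb at 267 ± 53.1. S100a9 and S100a8, at 6.82 and 3.89 TPM, thus stood far below each of these oxidase genes and below Tlr4.

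Of 9 cytoskeletal targets 8 reached 1 TPM in every library, among them Vim at 648 ± 73.1 TPM, Myl6 at 360 ± 60.6, Tpm3 at 284 ± 67.7 and Myh9, the non-muscle myosin heavy chain that S100A4 binds, at 72.2 ± 16.7. Myh9 was nearly level between libraries, at 776, 815 and 775 protein-coding CPM, where S100a4 was at 14.4, 3.47 and 5.79. All 5 ubiquitin and chaperone targets reached the limit, with Mdm2 at 37.8 ± 1.70 TPM, Stip1 at 32.0 ± 10.5 and Cacybp, the S100A6 partner, at 30.3 ± 6.65. Of 3 genes tied to export with S100a13, Il1a, the interleukin-1α gene, stood at 23.1 ± 5.09 TPM, Fgf1 had 1 count in all and Syt1 had none. The 14 other calcium-binding genes listed all reached 1 TPM with a median of 126 ± 11.0 TPM, above each S100 gene's mean, and were led by the EF-hand gene Aif1 at 470 ± 127, by Calr, whose protein calreticulin has no EF hand, at 277 ± 65.0, and by the EF-hand gene Efhd2 at 229 ± 35.5.

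No pair of members shares a stretch of 50 bases. S100a11 shares 41.1% of its 462 such stretches with the processed pseudogene Gm12854, which was assigned 1.32, 1.06 and 1.51 counts, so the split of reads between the gene and this copy is uncertain. S100a11 shares 23.4% and 4.33% with the processed pseudogenes Gm7665 and Gm29240, which were assigned 0 counts. Each pseudogene was compared on its own, so the same stretch may count for several and the shares cannot be added. S100a4 shares 47.4% of its stretches with Gm42674, an overlapping gene model on the same strand that was assigned 0 counts. Counts from the read-based tables were 1.05 to 1.28 times the expected counts for the members other than S100a8, and up to 1.77 times for S100a8, in replicate 2 (53 against 30). In the read-based tables, the level of S100a8 in replicate 3 was 0.773 TPM, below the limit of 1 TPM, although its counts there were 71 against 63 expected counts. Nuclear protein-coding genes held 7.95% of read-based TPM in replicate 3, against 20.5% and 21.4% in replicates 1 and 2. The same limit is therefore stricter for such genes in that library.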

How the data were processed

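RNA of the cytosolic fraction was measured in 3 libraries of 1 group. Per the file headers, the authors deposited gene and transcript tables with expected counts (not normalized), TPM and FPKM scaled within each library, isoform percentages and credibility bounds, and a second transcript table made from the reads, in estimated counts and TPM. Build mm10 and GENCODE M21 are named in the deposited description files. Not given in the sources used here are the aligner, the counter, their versions and the use of strand. Rows that match no annotated gene (0.194%, 0.247% and 0.0227% of counts) were left out. Replicates differed by more than counting noise (chi-square per degree of freedom at least 50.3), so they are separate libraries.

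Levels are TPM; log2 values use TPM + 1, which understates differences of low genes. Neighbours in the order were compared by an exact two-sided sign-flip permutation test with Benjamini-Hochberg adjustment over 7 pairs. Variation was estimated with edgeR 4.0.16 (R 4.3.3) on rounded expected counts, with TMM factors (1.02, 1.02, 0.954) and the package's filter on low counts, over 12361 genes; DESeq2 1.42.0 was an alternative. The estimate was tested on simulated data. For genes simulated at a BCV of 0.2 and 0.6, the gene-wise estimate gave medians of 0.161 and 0.557, and the default gave 0.212 and 0.271. The gene-wise estimate thus ran low for both, and the default was nearer for the genes at 0.2. The default, moderated dispersion and priors of 0, 1 and 3 degrees of freedom were all run with the members' values in view; the gene-wise estimate (prior 0) was taken because the default pulled the most variable genes of that test towards the rest, and the others are added alternatives. Isoform shares were computed from transcript TPM. Python 3.11.15 was used.

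The members, the gene lists and the alternatives were chosen with earlier results of these data known. Chosen after values were seen were also the length limits for short genes, the ribosomal protein set, the count of members lowest in replicate 2 and the promoters shown. Named were all 8 members, other S100 genes by count, the 3 genes of each partner list with the highest mean TPM, annexin, receptor and plasminogen genes, and for each member its nearest gene by pattern. Myh9 and the marker genes were named after their values were seen. Promoters came from RefSeq, matched by symbol for 7 of 8 members.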

Additional observations from a re-analysis of the deposited data

How the results depend on the processing

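The order of the members kept its direction under other settings except for neighbours within each other's spread. In protein-coding CPM, not divided by length, S100a11 minus S100a10 was -0.40 and S100a4 minus S100a13 was -0.69 on the log2 scale. Leaving out 1 replicate moved S100a4 minus S100a13 from -0.49 (without replicate 1) to 0.36. The count of members at the detection limit in every library was 7 with a limit of 5 TPM and 7 in the read-based tables, against 8. The member lost in the read-based tables was S100a8, in replicate 3, where nuclear protein-coding genes held only 7.95% of read-based TPM. The other values of the neighbour comparisons kept their direction, and since the exact test cannot go below 0.25 with 3 libraries, this says nothing about significance. Of the alternative values for single genes, 168 stayed near the value reported and 48 moved further, among them the mean TPM under another scale and dispersions: S100a4 and S100a6 gave 0.556 and 0.440 with a prior of 1 degree of freedom, 0.463 and 0.360 with 3, and 0.647 and 0.521 with DESeq2. Depth limits S100a8 most, and in replicate 2, where they had 30, 68 and 77 counts, S100a8, S100a4 and S100a9. No paired analysis was possible because the series holds 1 group.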
